A study of Mus musculus with 8 samples.

Results

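Podocytes are the epithelial cells that wrap the capillaries of the kidney glomerulus, and 7 of their genes are described here in whole-kidney RNA of Tsc1/Foxi1-dKO and WT mice. The genes were taken by name: Nphs1, Magi2, Plce1, Podxl, Ptpro, Synpo and Wt1. All 7 were among the 26893 genes listed, and all 7 passed the filter on low counts that left 15912 genes for testing. The Tsc1/Foxi1-dKO group (dKO) holds 4 libraries from mice labelled Tsc1f/f/Aqp2 Cre/Foxi1 knockout. The WT group holds 4 libraries from mice labelled C57BL/6. Both groups were 45 days old. In dKO mice the Cre is driven by Aqp2, a gene of principal cells of the collecting duct, so Tsc1 is deleted in those cells, and these mice were bred with Foxi1 knockout mice. Samples of the single Tsc1 knockout were not analysed here, so the part of each deletion in a difference cannot be told apart.

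A podocyte sends out interlocking foot processes, and the gap between neighbouring foot processes is bridged by the slit diaphragm, the last layer of the filter that keeps protein out of the urine. The slit diaphragm is tied through adaptor proteins to the actin of the foot process, while the surface that faces the urinary space carries a negatively charged coat that keeps the processes apart. A small set of transcription factors keeps this specialised state, and loss of many of these genes gives protein in the urine in mice or people.

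Levels are given as CPM, a read count relative to the library size after TMM scaling. A fold change is log2 of dKO over WT, and its standard error (SE) is that of the fitted model. Libraries held 17173194 to 24973213 counted reads in dKO and 14791687 to 19179034 in WT. Foxi1, the deleted transcription factor, was at 1.33, 1.56 and 1.41 CPM in dKO replicates 1, 2 and 3, against 26.6 to 33.6 CPM in WT. The library labelled Tsc1/Foxi1-dKO replicate 4 had 45.9 CPM of it and so goes against its label. Replicate 1 of dKO also stands apart, since its reads of 4 Y-linked genes numbered 0 and those of Xist 11083, while each of the other libraries had 2189 or more of the first kind and 11 or fewer of the second. The fold changes of the 7 genes and each list median below are therefore given with all libraries, without dKO replicate 1 and without both of these libraries. Whether each library came from a separate animal is not stated in the labels, and the p-values below measure the spread between these samples alone.

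Across the set, 6 of the 7 podocyte genes had a positive fold change and 1, Ptpro, a negative one. None passed the threshold of 0.05 in the quasi-likelihood test of edgeR, adjusted over all 15912 genes by the Benjamini-Hochberg method, in which 363 genes (2.28%) were called. At an unadjusted p under 0.05, 5 of the 7 lay higher in dKO, where 9.36% of all tested genes did, and DESeq2 called 1 of them (Nphs1), where it called 6.10% of all tested genes. Without dKO replicate 1, edgeR called 0 of the 7 and 3.90% of the genes tested. The median log2 fold change of the 7 genes was 0.41, against 0.0091 for all tested genes. Without dKO replicate 1 it was 0.23, against 0.0029 for all tested genes, and without both doubtful libraries 0.20, against 0.00086. In RNA of whole kidneys, a different number of podocytes and a different amount of RNA per podocyte cannot be told apart.

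**Figure D1:**
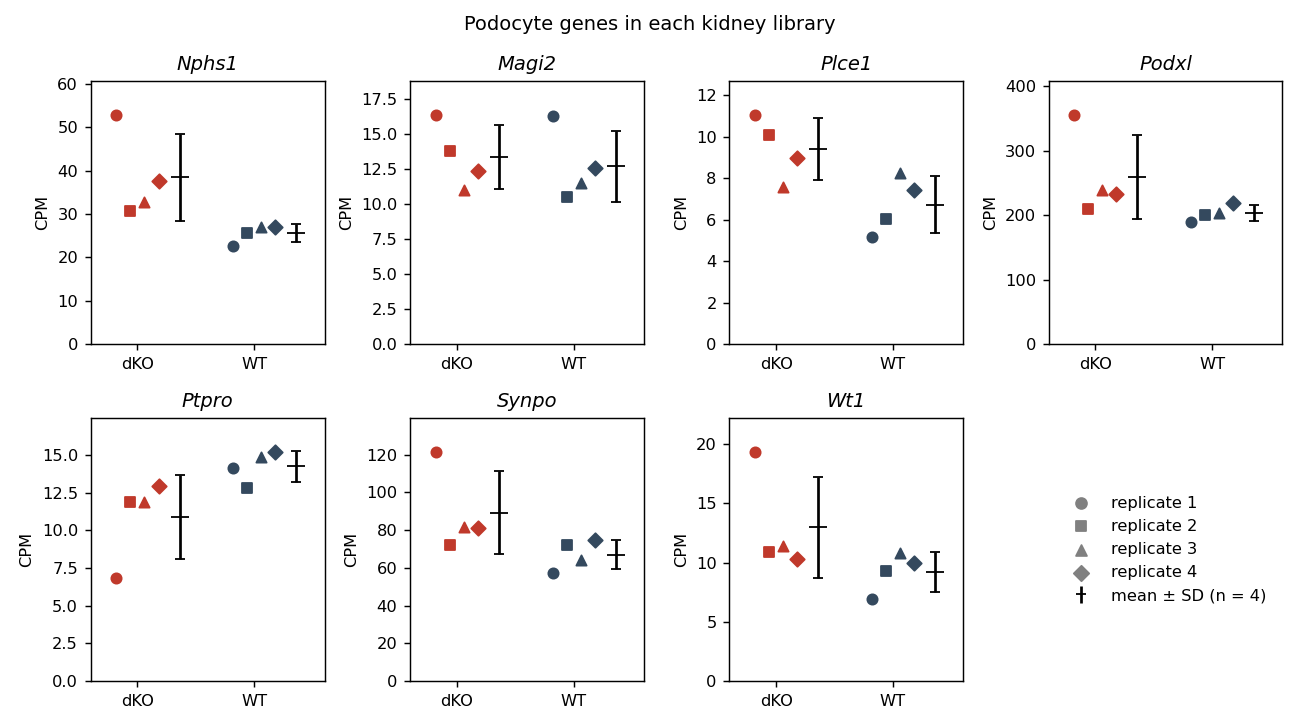
Level of each podocyte gene in CPM (vertical axes, linear, from 0) in the 4 dKO libraries (red, left) and the 4 WT libraries (dark blue, right), 1 point a library, with the mean ± SD (n = 4) beside the points. Nphs1 is the gene whose groups do not overlap, and dKO replicate 1 (circle) is the highest library for every gene shown but Ptpro, for which it is the lowest.

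The slit diaphragm is represented by Nphs1, Magi2 and Plce1. Nphs1 (ENSMUSG00000006649, chromosome 7, 30458315 to 30487223 on GRCm38) encodes nephrin, the adhesion protein whose extracellular chains span the slit. It had 52.7, 30.6, 32.8 and 37.6 CPM in dKO replicates 1 to 4, against 22.6, 25.7, 27.0 and 27.0 CPM in WT replicates 1 to 4, from 391 to 1191 reads a library. Every dKO library lay above every WT library, and the gap between the groups was the distance between 30.6 CPM in dKO replicate 2 and 27.0 CPM in WT. This held for 1 of the 7 genes, and for 6.06% of all tested genes in this direction. The means were 38.4 ± 9.96 CPM in dKO and 25.6 ± 2.10 CPM in WT (SD, n = 4 each), and the log2 fold change was 0.59 (SE 0.16), a difference of 1.5-fold. It did not pass the threshold in edgeR (adjusted p = 0.0961, unadjusted p = 0.00418), while DESeq2 gave an adjusted p of 0.0227. Without dKO replicate 1 the log2 fold change was 0.40 (edgeR adjusted p = 0.0615), and the groups still did not overlap, as for 7.42% of all tested genes. Without that library and the library labelled replicate 4 it was 0.31 (adjusted p = 0.216), and only replicates 2 and 3 stood for dKO.

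Magi2 (ENSMUSG00000040003, chromosome 5, 19227036 to 20704792) encodes a scaffold of PDZ domains that binds nephrin from inside the cell and is also used at synapses. It was at 16.3, 13.8, 10.99 and 12.4 CPM in dKO, against 16.3, 10.5, 11.5 and 12.6 CPM in WT. The groups overlapped over nearly their whole range, and replicate 1 was the highest library of each group. The log2 fold change was 0.074 (SE 0.17, edgeR adjusted p = 0.880), and it was -0.040 without dKO replicate 1 and -0.039 without both doubtful libraries. The 95% interval of the fold of dKO over WT, from its SE by a normal approximation, ran from 0.84 to 1.32. With so few samples that approximation is too narrow. Folds within that range, up or down, and some beyond it, remain compatible with these values.

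Plce1 (ENSMUSG00000024998, chromosome 19, 38481109 to 38785030) encodes phospholipase C epsilon, a signalling enzyme that is mutated in an inherited nephrotic syndrome of people. It was the least abundant of the set per length, with 93 to 249 reads a library. Its level was 11.02, 10.1, 7.57 and 8.97 CPM in dKO, against 5.18, 6.04, 8.22 and 7.43 CPM in WT. The dKO libraries lay above WT replicates 1, 2 and 4, but dKO replicate 3 was below WT replicate 3. The log2 fold change was 0.49 (SE 0.18, edgeR adjusted p = 0.202), and 0.40 without dKO replicate 1 (adjusted p = 0.328) and 0.39 without both doubtful libraries (adjusted p = 0.520).

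On the surface that faces the urinary space are Podxl and Ptpro. Podxl (ENSMUSG00000025608, chromosome 6, 31519488 to 31563981) encodes podocalyxin, the sialic-acid-rich protein that gives the foot processes their negative charge and that endothelial cells also make. Its level was 355.0, 210.0, 239 and 233 CPM in dKO, against 190.0, 201, 204 and 220 CPM in WT, from 2946 to 8023 reads a library. Only dKO replicate 1 stood far from the rest, and dKO replicate 2 lay below WT replicate 4. The log2 fold change was 0.35 (SE 0.15, edgeR adjusted p = 0.277), and without dKO replicate 1 it was 0.16 (adjusted p = 0.405). Without both doubtful libraries it was 0.14 (adjusted p = 0.669).

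Ptpro (ENSMUSG00000030223, chromosome 6, 137252319 to 137463233) encodes a receptor tyrosine phosphatase of the same surface, known as GLEPP1, and is also used in neurons. It had 6.81, 11.9, 11.9 and 12.9 CPM in dKO, against 14.1, 12.8, 14.9 and 15.2 CPM in WT, from 154 to 296 reads a library. In dKO replicate 1 it ran opposite to the other 6 genes, as that library was the lowest of all 8 for Ptpro. The dKO libraries lay below the WT libraries except that the library labelled replicate 4 was just above WT replicate 2. The log2 fold change was -0.39 (SE 0.18, edgeR adjusted p = 0.317, unadjusted p = 0.0578). Without dKO replicate 1 it was -0.22 (adjusted p = 0.385). Without both doubtful libraries it was -0.26 (adjusted p = 0.466), and the groups then did not overlap, as for 10.7% of all tested genes in this direction.

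Synpo (ENSMUSG00000043079, chromosome 18, 60593973 to 60660142) encodes synaptopodin, an actin-associated protein of foot processes and of dendritic spines. Its level was 121, 72.3, 81.9 and 81.2 CPM in dKO, against 57.2, 71.9, 64.3 and 74.5 CPM in WT. Of the dKO libraries, replicate 2 lay below WT replicate 4 and the others above every WT library. The log2 fold change was 0.41 (SE 0.16, edgeR adjusted p = 0.223), and 0.23 without dKO replicate 1 (adjusted p = 0.311). Without both doubtful libraries it was 0.20 (adjusted p = 0.569).

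Wt1 (ENSMUSG00000016458, chromosome 2, 105126529 to 105173616) encodes a zinc-finger transcription factor that podocytes need in development and in the adult, and mesothelium uses it as well. It was at 19.3, 10.9, 11.4 and 10.3 CPM in dKO, against 6.91, 9.25, 10.8 and 9.93 CPM in WT, from 124 to 437 reads a library. Replicate 1 of dKO was far above the other dKO libraries, which lay close to WT replicates 3 and 4, and WT replicate 1 was the lowest. The log2 fold change was 0.49 (SE 0.22, edgeR adjusted p = 0.296), and 0.24 without dKO replicate 1 (adjusted p = 0.568). With the library labelled replicate 4 left out too it was 0.27 (adjusted p = 0.647), and its groups did not overlap, though the gap was only that between 10.86 CPM in dKO replicate 2 and 10.85 CPM in WT replicate 3. The same held for 10.4% of all tested genes in this direction.

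**Figure D2:**
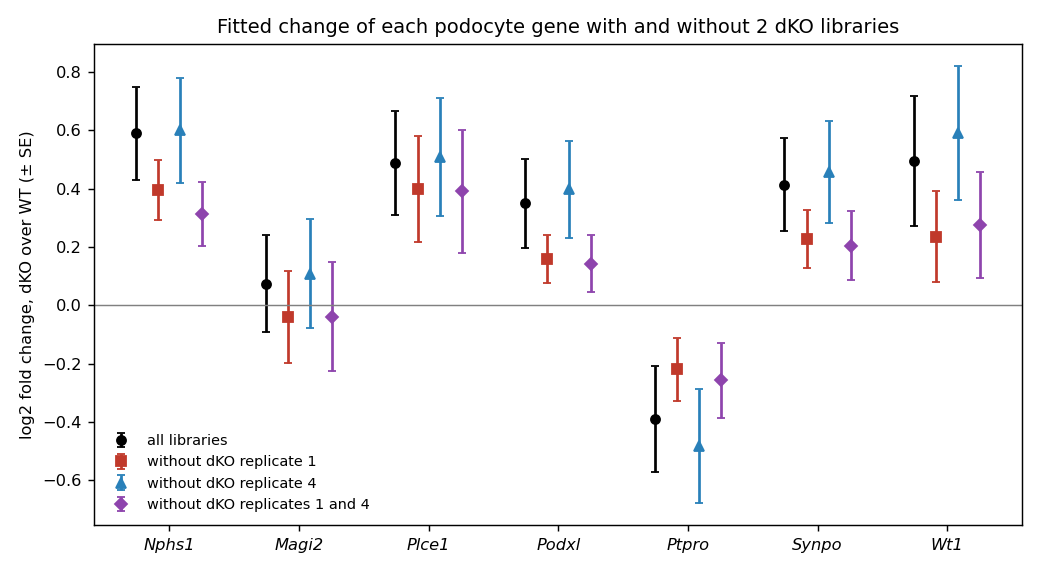
Fitted log2 fold change of dKO over WT (vertical axis, ± SE) of each podocyte gene with all libraries, without dKO replicate 1, without the library labelled dKO replicate 4, and without both. Leaving out replicate 1 brings the values of all 7 genes nearer to 0, that of Magi2 to -0.040, while leaving out replicate 4 alone does not.

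The 7 genes were then compared within each library. Relative to the mean log2 level in WT, their median was 0.81, 0.14, 0.23 and 0.20 in dKO replicates 1 to 4, against -0.18, -0.018, 0.062 and 0.11 in WT replicates 1 to 4. Replicate 1 of dKO was the highest library for 6 genes and the lowest for the remaining gene, Ptpro, and WT replicate 1 was the lowest for 5. Without dKO replicate 1 the distance between the groups was smaller, since dKO replicates 2 to 4 lay between 0.14 and 0.23 and the highest WT library was at 0.11. The summed level of the 7 genes was 583, 359.5, 395 and 396 CPM in dKO, against 312, 337, 340 and 366 CPM in WT, and Podxl made up 58.4% to 60.9% of it in every library.

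**Figure D3:**
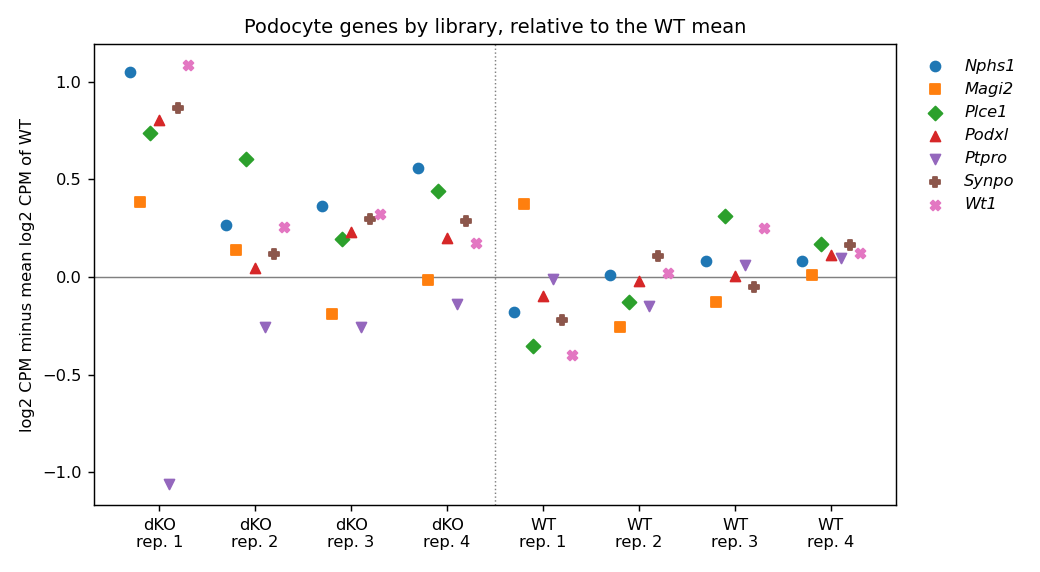
log2 CPM of each podocyte gene minus its mean log2 CPM in WT (vertical axis) in each dKO and WT library (horizontal axis), with 1 symbol per gene. In dKO replicate 1, 6 genes lie between 0.38 and 1.09 and Ptpro lies at -1.06.

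Podxl, the most abundant of the set, was used as a yardstick inside each library. Synpo stayed at 34.2% to 34.9% of the Podxl CPM in dKO, against 30.1% to 35.8% in WT, so their ratio overlapped between the groups. Nphs1 was at 14.8%, 14.6%, 13.7% and 16.1% of Podxl in dKO, against 11.9%, 12.8%, 13.3% and 12.3% in WT. Ptpro was at 1.92%, 5.67%, 5.0% and 5.55% of Podxl in dKO, against 7.44%, 6.40%, 7.30% and 6.93% in WT. For both Nphs1 and Ptpro the ratios did not overlap between the groups, upward for Nphs1 and downward for Ptpro, and this includes the dKO libraries other than replicate 1. The highest Nphs1 ratio, 16.1%, is from the library labelled replicate 4. Without both doubtful libraries the dKO ratios of Nphs1 were 14.6% and 13.7%, against at most 13.3% in WT. Those of Ptpro were 5.67% and 5.0%, against 6.40% or more in WT. Of all other tested genes set against Podxl in this way, 1.14% had every dKO ratio above every WT ratio and 16.2% had every one below, so the second pattern, that of Ptpro, was a common one. The 2 shares depend on the yardstick and use all dKO libraries. Podxl itself had a log2 fold change of 0.35, and a divisor that is higher in dKO lowers the dKO ratio of a gene with no change. The ratios of Wt1, Magi2 and Plce1 to Podxl overlapped between the groups. No test was run on the ratios, and they were chosen after the levels were seen.

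Per length of transcript the order of the genes was nearly the same in both groups. Deposited FPKM averaged 46.9 ± 11.8 in dKO and 37.0 ± 2.24 in WT for Podxl (SD, n = 4 each), 9.30 ± 2.28 in dKO and 7.02 ± 0.830 in WT for Synpo, and 5.77 ± 1.49 in dKO and 3.86 ± 0.323 in WT for Nphs1. Below these, Wt1 averaged 2.08 FPKM and Ptpro 1.61 FPKM in dKO, and Ptpro 2.12 FPKM and Wt1 1.49 FPKM in WT. In dKO the ranges of Wt1 and Ptpro overlapped, with Wt1 above Ptpro in 2 of 4 libraries, whereas in WT Ptpro was above Wt1 in 4 of 4. Magi2 followed at 1.17 FPKM in dKO and 1.117 FPKM in WT, and its range overlapped that of Ptpro in dKO and that of Wt1 in WT. Plce1 was the lowest, at 0.584 FPKM in dKO and 0.420 FPKM in WT, and overlapped with no other gene of the set. The ranges of Synpo and Nphs1 overlapped in dKO, but Synpo was the higher in each dKO library.

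The start regions of Nphs1 and Ptpro, the genes with the highest and the lowest log2 fold change of the set, are printed here. The sequences are from RefSeq on GRCm38.p6, 300 bases each, with the 250 bases before the transcript start in lower case and the 50 bases from the start on in capitals. The first lies at chr7:30459808-30460107 (+), inside the Nphs1 span given above, and the second at chr6:137252049-137252348 (+).
Nphs1: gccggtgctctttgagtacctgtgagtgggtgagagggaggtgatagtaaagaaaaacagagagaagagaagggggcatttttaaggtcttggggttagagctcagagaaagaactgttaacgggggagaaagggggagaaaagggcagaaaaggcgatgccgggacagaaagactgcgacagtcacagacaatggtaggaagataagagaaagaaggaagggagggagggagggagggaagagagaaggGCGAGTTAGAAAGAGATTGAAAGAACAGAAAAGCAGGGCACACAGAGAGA
Ptpro: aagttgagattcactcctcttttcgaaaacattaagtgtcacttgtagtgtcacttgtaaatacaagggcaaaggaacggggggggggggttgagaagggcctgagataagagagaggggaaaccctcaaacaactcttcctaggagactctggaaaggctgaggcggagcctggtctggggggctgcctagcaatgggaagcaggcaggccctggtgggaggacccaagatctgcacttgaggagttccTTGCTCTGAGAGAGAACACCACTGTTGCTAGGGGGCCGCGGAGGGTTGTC
The Nphs1 sequence is made of purines (A or G) to 77.7% on the strand of the gene, a share that 0.0365% of 32851 RefSeq promoters of this length reach, and the median promoter has 50.3%. The Ptpro sequence has 60.0% purines and a run of 12 G. Their GC contents were 49.7% for Nphs1 and 54.7% for Ptpro, with a median of 52.7% over all promoters.

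Of the 7 genes, 4 matched an entry (Nphs1, Ptpro, Plce1, and Magi2 with 2 starts), and these were searched on both strands for 5 motifs. The WT1 and EGR type motif GCGNGGGNG is held by 12.3% of all promoters. The homeodomain motif TAATTA, of the kind LMX1B binds, is in 5.29% of them and the forkhead motif GTAAACA in 3.65%. The GC box, searched as GGGCGG, is in 35.7% and the TATA box, searched as TATAAA, in 13.6%. No match was found in Nphs1, Ptpro or Plce1. Magi2 held the WT1 and EGR type motif at -119 before its first start, and TAATTA at -227 and a GC box at -28 before its second start. The motifs do not overlap each other there, and a match is one of letters in a fixed window.

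Overlapping genes were looked up as well, since the sources used here do not state whether counting used strand. Nphs1 shares 597 exonic bases with its antisense gene Nphs1os, which had 9 reads in all 8 libraries together, and 183 with the pseudogene Rps12-ps4, which had 87, while Nphs1 itself had 4970. Magi2 shares 203 exonic bases with Gm29254, which had 5 reads against 1982 of Magi2. The other 5 genes share no exonic base with another gene of the annotation.

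Other podocyte genes were read from 7 lists, grouped by what their products do, with 66 genes of which 64 were tested. Of these 64, 49 had a positive fold change and 0 were called by edgeR. At an unadjusted p under 0.05, 13 lay higher in dKO, where 9.36% of all tested genes did, and 1 lay lower. DESeq2 called 4 of the 64 (Myo1e, Arhgap24, Ddn and Angpt1), a share near the 6.10% it called of all tested genes. Their median log2 fold change was 0.19 with all libraries, 0.076 without dKO replicate 1 and 0.076 without both doubtful libraries. In 41 of the 64 genes (64.1%) dKO replicate 1 was the highest of the 8 libraries, as it was in 24.0% of all tested genes. In 8 genes every dKO library lay above every WT library, and in 0 below, where the first held for 6.06% of all tested genes.

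Among partners of the slit diaphragm, 6 of 9 tested genes were positive (median 0.17, 0.028 without dKO replicate 1 and 0.030 without both doubtful libraries). Tjp1, the junction protein ZO-1 found in many epithelia, was at 58.9 ± 6.15 CPM in dKO and 58.3 ± 7.08 CPM in WT.

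Actin and adaptor genes of the foot process were positive in 10 of 12 (median 0.24, and 0.12 both without dKO replicate 1 and without both doubtful libraries). Actn4, an actin crosslinker, had 413 ± 49.1 CPM in dKO and 371 ± 23.3 CPM in WT, and Arhgdia 288 ± 13.2 CPM in dKO and 295 ± 28.3 CPM in WT. Myo1e, a myosin of foot processes, had 66.1, 53.5, 45.3 and 50.9 CPM in dKO, against 43.5, 38.8, 34.6 and 39.4 CPM in WT, with no overlap (log2 fold change 0.46, edgeR adjusted p = 0.0821, and 0.34 without both doubtful libraries). Arhgap24, a GTPase-activating protein for Rac1, also had no overlap, at 229.5 ± 13.7 CPM in dKO and 191 ± 3.97 CPM in WT (log2 fold change 0.27, edgeR adjusted p = 0.106, and 0.24 without both). Genes described for their lack of overlap, here and in the lists below, were picked after their values were seen. In whole-kidney RNA the part of cells other than podocytes in their levels was not tested.

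All 7 genes of the apical surface had positive fold changes, from 0.042 to 0.22 (median 0.19, 0.12 without dKO replicate 1 and 0.069 without both doubtful libraries). The linker Ezr (ezrin), which ties podocalyxin to actin, had 438 ± 55.8 CPM in dKO and 416 ± 8.97 CPM in WT, and the peptidase gene Enpep 196 ± 32.7 CPM in dKO and 168 ± 10.4 CPM in WT. Both are also strong genes of the proximal tubule. Dag1 (dystroglycan) showed no overlap between groups, with a log2 fold change of 0.19 (edgeR adjusted p = 0.349, and 0.16 without both).

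Of the other transcription factors of podocytes 3 of 7 were positive, with a median of -0.025, of -0.065 without dKO replicate 1 and of -0.0035 without both doubtful libraries. Tcf21, which also marks stromal cells, was at 19.6 ± 2.71 CPM in dKO and 19.98 ± 3.74 CPM in WT.

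Genes of the glomerular basement membrane and its receptors were positive in 9 of 13 (median 0.15, 0.14 without dKO replicate 1 and 0.061 without both doubtful libraries). Itga3, the integrin chain by which podocytes hold on to laminin, had 105, 68.9, 68.4 and 75.7 CPM in dKO, against 56.7, 60.3, 62.0 and 59.4 CPM in WT. Its groups did not overlap (log2 fold change 0.42, edgeR adjusted p = 0.139), and the value was 0.25 without dKO replicate 1 and 0.21 without both doubtful libraries. Npnt, the gene of the matrix ligand nephronectin, showed no overlap either (0.68, edgeR adjusted p = 0.195), with 0.35 without dKO replicate 1 and 0.31 without both. The broadly used receptor genes Itgb1 and Cd151 had log2 fold changes of -0.072 and 0.020.

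Of the secreted factors, 5 of 6 were positive (median 0.15, and 0.11 both without dKO replicate 1 and without both doubtful libraries). Vegfa, the factor by which podocytes keep up glomerular endothelium and which tubules also make, was at 310.1 ± 22.7 CPM in dKO and 303 ± 12.8 CPM in WT. Angpt1 (angiopoietin 1) had 20.3, 16.2, 15.9 and 11.9 CPM in dKO, against 10.1, 10.8, 11.8 and 11.4 CPM in WT. The groups did not overlap, though the library labelled dKO replicate 4 lay close to WT, and without that library the gene passed the threshold (log2 fold change 0.67, edgeR adjusted p = 0.0324; with all libraries 0.55 and 0.104). For Angpt1 the log2 fold change was 0.41 without dKO replicate 1 (edgeR adjusted p = 0.132) and 0.54 without both doubtful libraries (adjusted p = 0.0453). Htra1, a secreted protease, was at 153 ± 17.9 CPM in dKO and 191 ± 27.7 CPM in WT (log2 fold change -0.32, edgeR adjusted p = 0.215).

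Other genes enriched in podocytes were positive in 9 of 10, with the highest median of these 7 lists, 0.35, with 0.055 without dKO replicate 1 and 0.16 without both doubtful libraries. Cdkn1c, a cell-cycle inhibitor of resting podocytes, had 20.6 ± 4.23 CPM in dKO and 18.2 ± 4.93 CPM in WT, and Ildr2 averaged 90.8 CPM in dKO and 109 CPM in WT (log2 fold change -0.26, edgeR adjusted p = 0.435, and -0.17 without dKO replicate 1). Nes (nestin) and Clic3 had no overlap between groups (log2 fold changes 0.47 and 0.44, edgeR adjusted p = 0.154 and 0.128). These values were 0.30 for Nes and 0.33 for Clic3 without dKO replicate 1, and without both doubtful libraries 0.33 for Nes and 0.35 for Clic3.

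**Figure D4:**
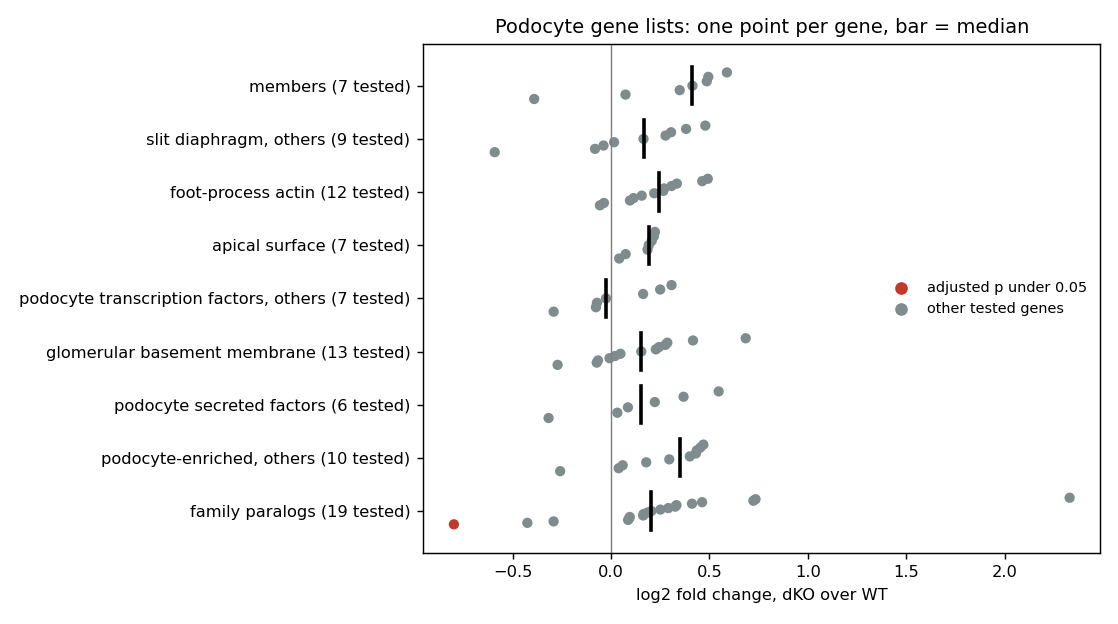
log2 fold change of dKO over WT (horizontal axis) of each tested gene in the set of 7 podocyte genes, in the 7 other podocyte lists and among paralogs, 1 point a gene, with a bar at each list's median. The medians run from -0.025 for the other transcription factors to 0.41 for the 7 genes, and 1 gene, Plcd3 at -0.80, passed the threshold.

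Paralogs of the 7 genes, most of which are not podocyte genes, were positive in 16 of 19 (median 0.21, 0.16 without dKO replicate 1 and 0.10 without both doubtful libraries). Plcd3, a phospholipase C of the delta type and so a relative of Plce1, was the 1 gene past the threshold in these lists. It fell to 13.3, 9.07, 10.03 and 12.4 CPM in dKO, against 20.3, 17.2, 21.5 and 19.0 CPM in WT, with every dKO library below every WT library (log2 fold change -0.80, SE 0.14, edgeR adjusted p = 0.0181). Without dKO replicate 1 the value was -0.89 (adjusted p = 0.00355) and without both doubtful libraries -1.02 (adjusted p = 0.00189), while the call was lost without WT replicate 1, 3 or 4 (adjusted p = 0.0512, 0.0672 and 0.0567). Plcd1 and Plch1, from the same enzyme family, lay higher in every dKO library than in any WT library, at 10.1 ± 1.81 and 3.78 ± 0.483 CPM in dKO and 7.59 ± 0.890 and 2.27 ± 0.527 CPM in WT, but did not pass (edgeR adjusted p = 0.213 and 0.118). For Plcd1 the log2 fold change was 0.41 with all libraries, 0.28 without dKO replicate 1 and 0.24 without both doubtful libraries. Ptprh, a relative of Ptpro, had 52, 11, 15 and 12 reads in dKO, against 4, 0, 5 and 5 reads in WT.

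Markers of other cell types were summed in each library, since several moved with dKO replicate 1. Relative to the WT mean, that library held 1.72 times the summed level of the 7 podocyte genes, 1.47 times that of 7 endothelial genes, 1.68 times that of 10 mesangial and mural genes, 2.73 times that of 5 urothelial genes, 2.81 times that of 8 principal-cell genes, 1.32 times that of 5 genes of the thick ascending limb and 0.703 times that of 11 proximal-tubule genes. Of the principal-cell sum in dKO replicate 1, 1998 CPM, Aqp2 alone made up 1234 CPM. In WT, Aqp2 was at 225 to 314 CPM within sums of 679.8 to 791 CPM. In the other 3 dKO libraries the podocyte genes stood at 1.06 to 1.17 times the WT mean. There endothelial genes ran from 0.952 to 1.21, mural genes from 0.839 to 1.11, urothelial genes from 0.888 to 1.29, principal-cell genes from 1.24 to 1.37, thick-ascending-limb genes from 1.11 to 1.26 and proximal-tubule genes from 0.940 to 0.986. Parietal genes ran there from 0.867 to 0.970 and immune genes from 0.697 to 0.970. The part of all such cells in the podocyte values was not tested.

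**Figure D5:**
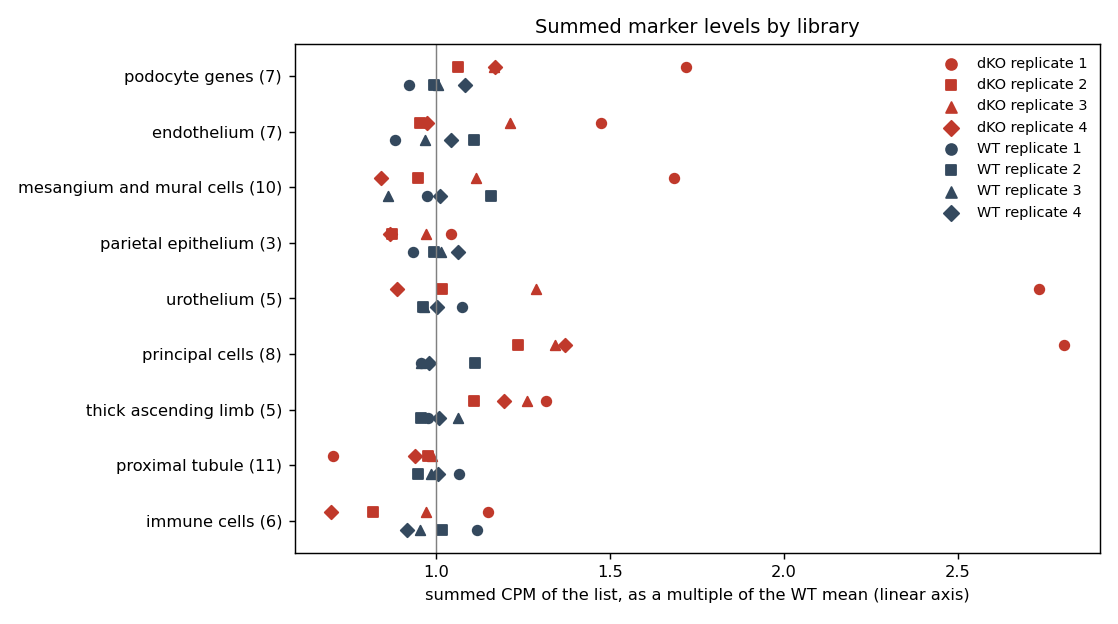
Summed CPM of each marker list divided by its mean in WT (horizontal axis, linear) in the dKO libraries (red, upper row of each list) and the WT libraries (dark blue, lower row), with the number of genes in brackets. Replicate 1 of dKO (red circle) lies at 1.72 for the podocyte genes and at 2.81 for principal cells, a sum that is mostly Aqp2 in that library. For the proximal tubule that replicate lies below every other library, at 0.703.

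Endothelial sums were 341 to 528 CPM in dKO and 316 to 397 CPM in WT, with 7 of 7 genes positive and 0 called by edgeR or by DESeq2 (0 at an unadjusted p under 0.05). Their median log2 fold change was 0.17, 0.060 without dKO replicate 1 and 0.14 without both doubtful libraries. Mural sums were 306 to 614 CPM in dKO and 314 to 422 CPM in WT, with 8 of 10 positive and 0 called by either tool (1 at an unadjusted p under 0.05). The mural median was 0.15, 0.039 without dKO replicate 1 and 0.032 without both doubtful libraries. For the parietal epithelium, the flat cells that line the capsule around the glomerulus, the sum was 124 to 149 CPM in dKO and 133 to 152 CPM in WT. Of its 3 genes 2 were positive (median 0.12, -0.081 without dKO replicate 1 and 0.035 without both doubtful libraries). The negative one, Pax8, a transcription factor of that epithelium and of tubules, passed the threshold and fell by 0.35 on the log2 scale (edgeR adjusted p = 0.0365). Principal-cell genes were positive in 7 of 7 tested, with sums of 880.1 to 1998 CPM in dKO and 679.8 to 791 CPM in WT, which did not overlap. Of them, 2 (Aqp2 and Hsd11b2) lay higher in every dKO library than in any WT library, where 6.06% of all tested genes did. Urothelial genes were positive in 5 of 5, with sums of 15.96 to 49.2 CPM in dKO and 17.3 to 19.3 CPM in WT. For principal cells the median was 0.52, 0.29 without dKO replicate 1 and 0.23 without both doubtful libraries. For urothelium it was 0.52, 0.086 without dKO replicate 1 and 0.19 without both. Proximal-tubule genes were positive in 5 of 11, with sums of 14544 to 20399 CPM in dKO and 19601 to 22044 CPM in WT. Here the median was -0.069, -0.013 without dKO replicate 1 and 0.013 without both doubtful libraries. In the thick ascending limb list 4 of 5 had a positive fold change, with sums of 4378 to 5196 CPM in dKO and 3766 to 4190 CPM in WT, which did not overlap. This list's median was 0.36, 0.23 without dKO replicate 1 and 0.22 without both doubtful libraries. Of these 5 genes edgeR called 0, while DESeq2 called 3, where it called 6.1% of all tested genes. At an unadjusted p under 0.05 in edgeR, 3 lay higher in dKO, where 9.36% of all tested genes did, and 1 lay lower. In 3 genes every dKO library lay above every WT library, which held for 6.06% of all tested genes. In tubule lists, Slc22a8, an organic anion transporter of the proximal tubule, rose by 0.58 on the log2 scale (adjusted p = 0.0180) and Hsd11b2, the cortisol-inactivating enzyme of principal cells, by 0.57 (adjusted p = 0.0477). None of these 3 calls held throughout: that of Slc22a8 was lost without WT replicate 2, 3 or 4 (adjusted p up to 0.0704), that of Pax8 without each library but dKO replicate 1 (up to 0.136) and that of Hsd11b2 without each library but dKO replicate 1 or the library labelled dKO replicate 4 (up to 0.140).

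Some of the 7 genes are also used outside the glomerulus, so markers of mesothelium and neurons were read, and a marker of the adrenal cortex as well. Of 3 mesothelial genes 2 were tested, both with a positive log2 fold change (0.47 and 0.53), and edgeR called 0. For both, dKO replicate 1 was the highest library. For mesothelium, which uses Wt1, Upk3b was at 3.41 to 8.01 CPM in dKO and 3.34 to 4.17 CPM in WT, with the highest value in dKO replicate 1, and Lrrn4 was at most 0.0885 CPM in dKO and 0.170 CPM in WT. For neurons, which use Magi2, Ptpro and Synpo, Syp was at 3.06 to 6.86 CPM in dKO and 4.12 to 5.24 CPM in WT, and Rbfox3 at most 0.605 CPM in dKO and 0.738 CPM in WT. Cyp11a1 of the adrenal cortex was at most 0.165 CPM in dKO and was 0 in each WT library, where 0 reads allow up to 0.160 to 0.207 CPM by a floor of 3 reads.

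The genes whose profile over the 8 libraries lay nearest to the mean profile of the 7 were, outside the podocyte lists, Pgam1, Unc45a, Hadha, Trim12c and Impa2. Likeness was the root mean square distance of log2 levels, each centred on its own mean, and these genes were at 0.040 to 0.057 among 13791 protein-coding genes. All 5 had the highest level in dKO replicate 1. This follows from how they were chosen, since the mean profile of the 7 is itself highest in that library. None of the 5 was called (edgeR adjusted p from 0.217 to 0.408). By the same measure the 7 genes themselves ran from 0.11 for Podxl, at rank 204, to 0.49 for Ptpro, at rank 12633.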

How the data were processed

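Whole-kidney poly(A) RNA of 4 dKO and 4 WT samples had been sequenced on a HiSeq instrument, and per the submitters' processing notes the authors used HISAT2 2.0.4 and HTSeq 0.9.1. For the genome build, no name is given in the sources used here, but the deposited positions of all 7 genes equal those of GRCm38 (GENCODE M21). The deposited counts are raw reads per gene. The deposited signal columns hold the counts that the authors divided by a size factor per library, and their group means, and were not used. In the deposited FPKM, the authors related the reads of a gene to its length and to a scaled library size. Columns of the authors' own fold changes and p-values were not used.

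Counts were filtered in edgeR 4.0.16 with filterByExpr, at a minimum of 10 counts and a total of 15, scaled by TMM and compared by the two-sided quasi-likelihood test with robust estimation in R 4.3.3, with no covariate, since batch, litter and sex are not in the labels. The threshold was an adjusted p of 0.05 (Benjamini-Hochberg, 15912 genes). The SE is the size of the log2 fold change divided by the square root of F. A floor of 3 reads is 0.121 to 0.207 CPM, and floors cover counting error only. Unless stated, libraries are given in the order of replicates 1 to 4, numbers that only name them. Before use, the fit was checked on simulated counts with known changes.

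The 7 genes, the lists and the tests were chosen with earlier results of these data known. Named from each other list were up to 3 genes past the threshold or, where none passed, the 2 with the highest FPKM, plus the 5 nearest profiles, which used log2 of CPM with 0.5 added. Lists were described by counts and medians, with no set test. Alternatives were other scaling factors, DESeq2 1.42.0, limma-voom (limma 3.58.1), other filters, non-robust estimation, removal of mitochondrial genes and of the 20 most abundant ones, FPKM on the log2 scale with 1 or 0.1 added, each library left out in turn, and dKO replicates 1 and 4 left out together. List medians without dKO replicate 1, also with replicate 4 left out too, and counts of genes without overlap when libraries are left out were added after seeing the data. Some genes and samples of the study are not reported here.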

Additional observations from a re-analysis of the deposited data

Results flagged for a closer look

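The level of each of the 7 podocyte genes and their sum were checked in both groups for a library far from the other 3, by Dixon's test. Of 16 groups tested, 3 held such a library. Chance gives about 1 in 20 for a single group, but these groups share the same libraries, and the sum is made of the 7 genes. They are not independent, so 1 odd library can raise several flags, and the count cannot be set against chance. All 3 were dKO replicate 1: Wt1 at 19.3 CPM and the summed level at 583 CPM lay far above the other dKO libraries, and Ptpro at 6.81 CPM lay far below them. The same library has 0 Y-linked reads, 11083 Xist reads and 1234 CPM of Aqp2, where dKO replicates 2 to 4 have 339 to 408 CPM and WT libraries 225 to 314 CPM. The part of these in the values of the 7 genes was not tested.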

How the results depend on the processing

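Over 19 alternatives, 6 of the 7 podocyte genes kept the sign of their log2 fold change, and Magi2 did not. edgeR called 363 genes and 0 of the 7, and DESeq2 called 971 genes and 1 of the 7, Nphs1 (log2 fold change 0.58, adjusted p = 0.0227). Over all alternatives the adjusted p of Nphs1 ran from 0.0227 to 0.216. Leaving out 1 library at a time gave 138 (without WT replicate 4) to 628 (without dKO replicate 1) called genes, and 225, 143 and 141 without WT replicates 1, 2 and 3. In each of these fits 0 of the 7 were called, and their median log2 fold change ran from 0.23 to 0.47. Ranges that crossed 0 when 1 library was left out were -0.040 to 0.22 for Magi2, -0.069 to 0.075 for Tjp1, -0.0084 to 0.14 for Ezr, -0.015 to 0.064 for Cd151, -0.10 to 0.11 for Tcf21, -0.014 to 0.062 for Vegfa and -0.072 to 0.028 for Arhgdia. Without dKO replicates 1 and 4 together the values were -0.039 for Magi2, -0.095 for Tjp1, -0.026 for Ezr and -0.030 for Cd151. Plcd3 and Slc22a8 were past the threshold in 16 of 19 alternatives each, Pax8 in 10 and Hsd11b2 in 9. The cause of these differences was not tested. No paired analysis was possible because the replicate numbers only name the samples and the labels pair none across groups. Low counts limit Plce1, Ptpro and Wt1 most, with as few as 93, 154 and 124 reads in a library.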
